A study of Mus musculus with 32 samples.

Results

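Probes for 8 genes of 3 potassium channel families that are known as sensitive to ethanol were followed in the frontal cortex (FCtx) of mice. The genes were chosen by name and every probe on the array that carries one of the 8 symbols was taken, which gave 13 of the 25697 probes and 8 of the 18138 gene symbols. Kcnma1 and Kcnmb4 encode the pore-forming subunit and a brain-enriched accessory subunit of the BK channel. Kcnj3, Kcnj6 and Kcnj9 encode the GIRK1, GIRK2 and GIRK3 subunits, and Kcnn1, Kcnn2 and Kcnn3 the SK1, SK2 and SK3 channels.

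All mice were female C57BL/6J x FVB/NJ F1 hybrids, with 20 ethanol-treated mice and 12 controls and 1 Illumina MouseRef-8 v2.0 array for each mouse. The ethanol-treated mice had a choice of water and 20% ethanol in daily sessions of 3 h for 20 days, and the tissue was taken 20 h after the last session by the Methods or 24 h after it by the Discussion. The controls are called matched controls, and neither what they drank nor the age of the experimental mice is given in the sources used here. The labels name 1 direction of the cross, the Methods both. Chips 1 and 2 carried 8 ethanol-treated mice each, chip 4 carried 8 controls, and chip 3 carried 4 mice of each group. On chip 3 the ethanol-treated mice lay at positions A, C, E and G (odd) and the controls at B, D, F and H (even), so that treatment and position cannot be told apart within this chip. Between chips 1 and 2 and chip 4, treatment and chip cannot be told apart.

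BK channels open with depolarization and with a rise of calcium inside the cell, and shorten action potentials and limit transmitter release. Ethanol is known to change their opening, and the β4 subunit that Kcnmb4 encodes slows their gating and is known to shape acute tolerance to ethanol. GIRK channels are opened by the βγ subunits of inhibitory G proteins, and ethanol is known to open them directly at a pocket for alcohols. SK channels are opened by calcium through bound calmodulin and contribute to the hyperpolarization that follows spikes.

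The array reads each gene with probes of 50 bases. The sequences of the probes on which the results below rest are shown so that the sites measured can be seen, all from the deposited annotation and with no part marked. The 2 Kcnmb4 probes are shown because their differences were not alike, and the Kcnj6 probe is the only probe of this gene that was detected on more than 1 array.

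Kcnma1: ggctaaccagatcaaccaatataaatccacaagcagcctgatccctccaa

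Kcnmb4 probe 1: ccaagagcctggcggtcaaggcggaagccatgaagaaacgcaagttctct

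Kcnmb4 probe 2: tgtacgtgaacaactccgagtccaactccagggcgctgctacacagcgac

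Kcnj3: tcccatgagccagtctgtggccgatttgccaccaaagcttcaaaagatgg

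Kcnj9: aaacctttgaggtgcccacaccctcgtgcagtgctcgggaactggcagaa

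Kcnj6 probe 1: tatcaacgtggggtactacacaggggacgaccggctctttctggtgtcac

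The annotation places Kcnmb4 probe 1 (ILMN_3101339) on the minus strand at chr10:115855296-115855345 and probe 2 (ILMN_3028187) at chr10:115910268-115910317. Their starts lie 54972 bases apart in the genome but 321 bases apart in the transcript, where probe 2 is the upstream one, so that intron sequence lies between them. Probe 1 is annotated as matching all isoforms and probe 2 as specific to an isoform. The Kcnj3 probe (ILMN_2714252) lies on the plus strand at chr2:55447685-55447734, the Kcnj9 probe (ILMN_1242415) on the minus strand at chr1:174253155-174253204 and Kcnj6 probe 1 (ILMN_3112363) on the minus strand at chr16:95054025-95054074. No position is given for the Kcnma1 probe (ILMN_1256814). The build of these coordinates is not given in the sources used here. The Kcnn1 probe (ILMN_2664556) is on chromosome 8, and Kcnn2 probe 1 (ILMN_2595430) and probe 2 (ILMN_1223088) are on chromosome 18. The Kcnn3 probe (ILMN_2612915) is on chromosome 3. Each printed probe is open in at least 1 of its 3 reading frames, and no run of more than 8 bases was shared between probes of different members.

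In FCtx the probes of the BK genes, Kcnj3 and Kcnn1 were detected on all or nearly all arrays. Those of Kcnj9 and probe 1 of Kcnn2 were detected on most, and those of Kcnj6 and Kcnn3 on 13 or fewer. A probe counted as detected where its detection p-value, which sets its signal against negative control beads, was below 0.01. Both Kcnmb4 probes, Kcnma1 and Kcnn1 were detected on all 32 arrays, and Kcnj3 on 31. Kcnj9 was detected on 28 arrays (19 ethanol and 9 control) and Kcnn2 probe 1 on 27 (18 ethanol and 9 control). Kcnj6 probe 1 was detected on 13 arrays, 9 of ethanol-treated mice and 4 of controls, Kcnj6 probe 2 on 1, and Kcnj6 probes 3 and 4, Kcnn2 probe 2 and Kcnn3 on 0. These 6 probes fell short of the 24 arrays required and were not tested, which left 7 probes of 6 genes. The Kcnn3 probe was thus not detected above background on any array, and Kcnj6 probe 1 was on fewer than the 24 arrays required. The neuron markers Snap25 and Nefl were also detected on 0 arrays, while Syt1, Stmn2 and Eno2 were on 32. An undetected probe therefore does not show that its gene is silent.

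**Figure D1:**
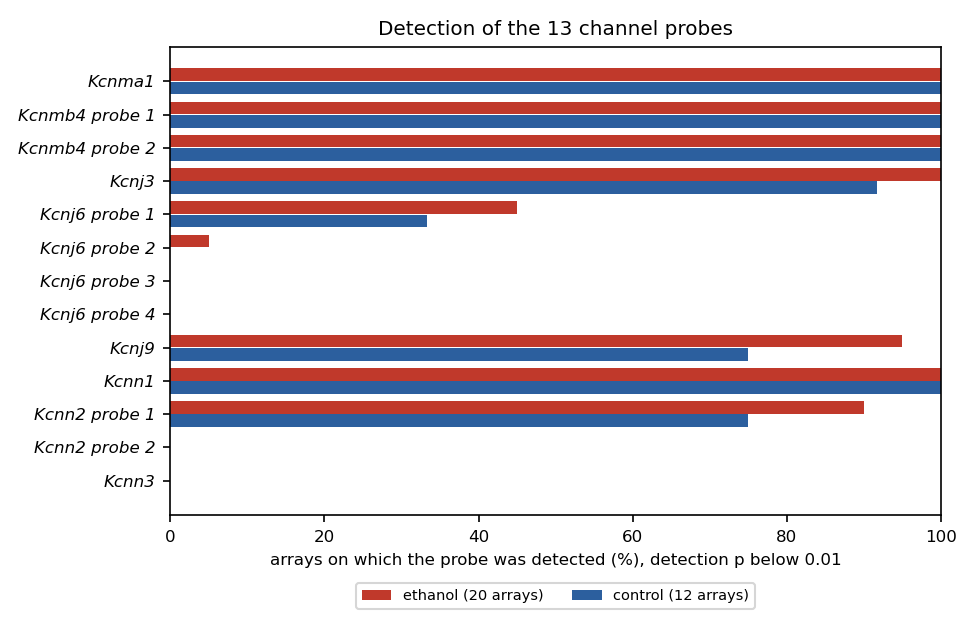
Share of the arrays, in percent, on which each of the 13 channel probes was detected, for 20 ethanol (red) and 12 control (blue) arrays. Both Kcnmb4 probes, Kcnma1 and Kcnn1 reached all arrays of both groups, Kcnj6 probe 1 reached 13 of 32 arrays, and 4 probes have no bar because they were detected on 0 arrays.

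The undetected probes lay in a narrow band. In ethanol-treated mice the unnormalized signal of Kcnn3 ran from 146 to 179 with a median of 163, and in controls from 134 to 161 with a median of 145. The median signal of a whole array was 166 to 203 in ethanol-treated mice and 146 to 187 in controls, so both were lower in controls. After normalization Kcnn3 averaged 7.57 ± 0.0638 (SD, n = 20) and 7.54 ± 0.0355 (SD, n = 12) on the log2 scale. For Kcnj6 probe 1 the means were 7.78 ± 0.0944 (SD, 20 ethanol arrays) and 7.77 ± 0.0913 (SD, 12 control arrays).

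Facts of the whole array set bear on what follows. Between 9480 and 11544 probes were detected per array, and the lowest number and the lowest median signal both came from control mouse C66 on chip 4. Pairs of arrays correlated with r between 0.975 and 0.995. Normalized levels below are on a log2 scale, differences are ethanol minus control, SE is the standard error of a difference, and adjusted p-values are limma's after Benjamini-Hochberg over the 10187 tested probes. In tissue, fewer cells of a type and less RNA per cell cannot be told apart.

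Over all 32 arrays, 0 of the 6 tested genes passed an FDR of 1% by limma, and 5 of the 7 probes had an unadjusted p below 0.05. At an FDR of 10%, Kcnj3 and Kcnj9 were higher in ethanol-treated mice, while Kcnn1 and Kcnmb4 probe 1 were lower. Of all tested probes 8.27% passed the 1% threshold and 25.5% the 10% threshold. The 4 channel probes that passed at 10% were 4 of 7. The median difference was 0.0109 over the channel probes and -0.00321 over all tested probes, and the median size of a difference, sign aside, was 0.118 and 0.0588. With a fixed term for chip, which leaves chip 3 alone to set the difference, Kcnj3, Kcnj9 and Kcnn1 no longer passed an FDR of 10% (adjusted p = 0.755, 0.561 and 0.641), and Kcnj3 turned to -0.0469. Kcnmb4 probe 1 passed with that block and no longer passed with median scaling (adjusted p = 0.322) or with chip and position together (adjusted p = 0.216). Of all tested probes 6.57% passed an FDR of 10% with that block, 11.6% with median scaling and 0.0491% with chip and position together.

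Kcnma1, the BK pore, had levels of 8.95 at the lowest, 9.38 at the median and 9.83 at the highest in the 20 ethanol-treated mice, and of 8.94, 9.26 and 9.51 in the 12 controls. The groups overlapped, though 6 ethanol-treated mice lay above the highest control and 15 above the control median. The difference was 0.15 (SE 0.071, adjusted p = 0.131). Among mice of the same group and chip its residual SD was 0.186, larger than in 94.5% of the tested probes, whose median was 0.111.

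Kcnmb4 probe 1 ran from 9.16 through a median of 9.52 to 9.71 in ethanol-treated mice, and from 9.31 through 9.70 to 10.06 in controls. Of the 20 ethanol-treated mice, 19 lay below the control median and 2 below the lowest control. The difference was -0.20 (SE 0.061, adjusted p = 0.0161), a ratio of ethanol to control of 0.868. Probe 2 of the same gene ran from 8.66 through 8.95 to 9.27 in ethanol-treated mice and from 8.73 through 9.0 to 9.35 in controls. Its groups overlapped almost wholly, and the difference was -0.06 (SE 0.06, adjusted p = 0.545). The gap between both probes, probe 1 minus probe 2 in each mouse, averaged 0.55 ± 0.141 (SD, 20 ethanol arrays) and 0.697 ± 0.0997 (SD, 12 control arrays). The gap was thus narrower in the ethanol-treated mice, with a difference of means of -0.147 (p = 0.00375, two-sided permutation test, 100000 resamples). The resampling was over all 32 arrays and took no account of chip or position. This p-value therefore cannot separate treatment from either of them. Across the 32 arrays, which share chips, the probes correlated with r = 0.716, or 0.555 after centring within each chip and treatment. This centring left any difference by position in place.

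Kcnj3, which encodes the GIRK1 subunit found in most neuronal GIRK channels, ran from 7.93 through 8.10 to 8.34 in ethanol-treated mice and from 7.85 through 7.99 to 8.16 in controls. Of the ethanol-treated mice 7 lay above the highest control. The difference was 0.12 (SE 0.042, adjusted p = 0.0396), a level 8.66% higher. With normexp background correction it was 0.345 (adjusted p = 0.0283). Kcnj9, the GIRK3 subunit, ran from 7.70 through 7.98 to 8.21 and from 7.72 through 7.88 to 8.08. Its difference was 0.12 (SE 0.043, adjusted p = 0.0518), with 15 of 20 ethanol-treated mice above the control median. As 9 of 12 controls had a detected Kcnj9 signal, part of this comparison lies near background. With normexp background correction the Kcnj9 difference was 0.391 (adjusted p = 0.0495). The size of both differences thus depends on how background is handled.

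Kcnn1, the SK1 channel, ran from 7.95 through 8.20 to 8.37 in ethanol-treated mice and from 8.15 through 8.29 to 8.41 in controls. It fell by 0.09 (SE 0.035, adjusted p = 0.0575), with 6 ethanol-treated mice below the lowest control. With normexp background correction the Kcnn1 difference was -0.22 (adjusted p = 0.0475). Kcnn2, the SK2 channel, was read by probe 1 with a median of 7.85 (range 7.70 to 7.96) in ethanol-treated mice and 7.80 (range 7.74 to 8.0) in controls. Its difference was 0.01 (SE 0.031, 95% interval -0.05 to 0.07, adjusted p = 0.847), the narrowest interval of the 7 probes.

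**Figure D2:**
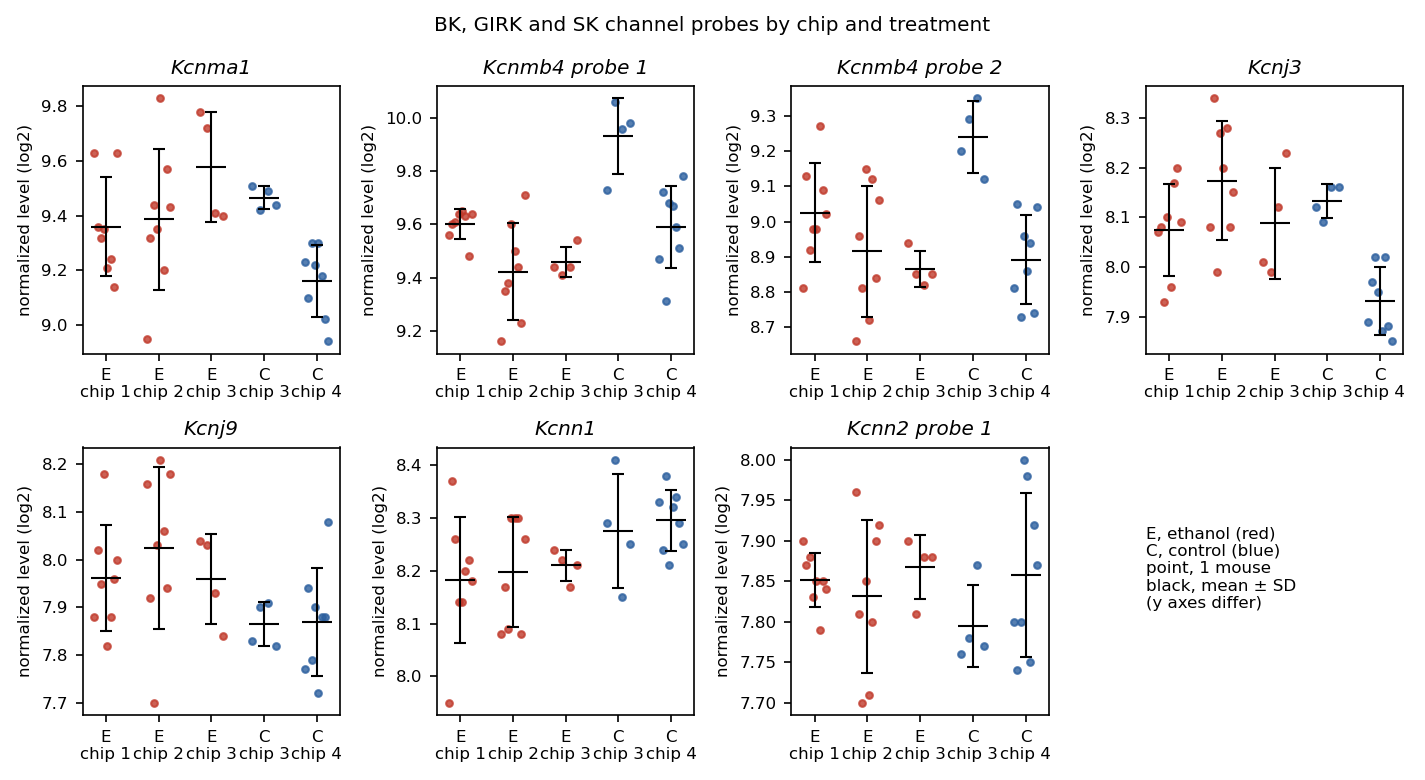
Normalized level (log2) of the 7 tested probes in each of the 32 mice, by chip and treatment, with the mean and SD of each set in black. The 4 controls of chip 3 stand above the 4 ethanol-treated mice of the same chip for both Kcnmb4 probes, and the 8 controls of chip 4 have the lowest mean for Kcnma1 and Kcnj3, within ranges that overlap other sets.

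Chip 3 was the only chip with both groups, and there Kcnmb4 was the only one of the 6 genes to pass either threshold. Kcnmb4 probe 1 measured 9.44, 9.41, 9.44 and 9.54 in the ethanol-treated mice A46, A47, A49 and A50. In the controls C52, C54, C55 and C56 it measured 9.73, 10.06, 9.96 and 9.98. All 4 controls lay above all 4 ethanol-treated mice. The difference was -0.48 (SE 0.071, adjusted p = 0.00119), with a ratio of 0.719.

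Probe 2 measured 8.94, 8.85, 8.82 and 8.85 in the same ethanol-treated mice and 9.20, 9.29, 9.35 and 9.12 in the same controls. Here too the groups did not overlap. The difference was -0.37 (SE 0.064, adjusted p = 0.00223), with a ratio of 0.772. On chip 3, 3.25% of all tested probes passed at 1% and 17% at 10%, against 2 of 7 channel probes, both of Kcnmb4. The probes belong to 1 gene and are not separate evidence. With normexp background correction the adjusted p of both probes was 0.0195, and 0 of all tested probes passed at 1%.

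The other 5 probes passed neither threshold on chip 3. Kcnma1 measured 9.78, 9.72, 9.41 and 9.40 in the ethanol-treated mice and 9.51, 9.42, 9.49 and 9.44 in the controls. The ethanol-treated mice fell above and below all the controls, in pairs, and the difference was 0.11 (95% interval -0.06 to 0.29, adjusted p = 0.406). Kcnj3 measured 8.01, 7.99, 8.12 and 8.23 against 8.12, 8.09, 8.16 and 8.16. Its difference was -0.05 (95% interval -0.18 to 0.09, adjusted p = 0.692), and so had the sign opposite to that over all arrays. Kcnj9 differed by 0.10, Kcnn1 by -0.07 and Kcnn2 probe 1 by 0.08, with adjusted p of 0.348, 0.549 and 0.436.

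Some lists of cell markers also differed between the groups on chip 3, and others did not. The mean level of the 4 tested olfactory bulb probes (Doc2g, Th and Calb2) was 9.28 to 9.53 in the 4 ethanol-treated mice and 8.28 to 8.99 in the 4 controls. Of the bulb's defining genes, Eomes was detected on 8 of the 32 arrays and Tbx21 on 1. The mean of the 12 oligodendrocyte probes was 9.68 to 9.90 and 9.79 to 10.38, and 8 of the 12 passed an FDR of 10%, where 17% of all probes did. The 4 excitatory cortex probes had means of 9.65 to 9.77 and 9.84 to 10.07, the 4 astrocyte probes 11.02 to 11.22 and 10.81 to 10.88, and the 5 interneuron probes 11.85 to 11.91 and 11.59 to 11.73. The 4 endothelium probes had means of 9.12 to 9.29 and 8.94 to 9.04. For neurons (3 probes), microglia (6 probes) and blood (2 probes) the means overlapped, and 0 probes passed an FDR of 10%. The means of the striatum and activity lists overlapped as well, with 1 probe of each passing. The part of cell content in the Kcnmb4 difference was not tested. By the Methods, the dissection used a section without the olfactory bulbs.

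The 16 ethanol-treated mice of chips 1 and 2 and the 8 controls of chip 4 share no array with chip 3. In that comparison Kcnj3 was the only one of the 6 genes to pass an FDR of 1%, and Kcnma1 and Kcnn1 passed 10%. Of all tested probes 11.8% passed at 1% and 31.9% at 10%, against 1 and 3 of the 7 channel probes. Kcnj3 ran from 7.93 to 8.20 on chip 1 (median 8.09), from 7.99 to 8.34 on chip 2 (median 8.17) and from 7.85 to 8.02 on chip 4 (median 7.92). The chip 4 median was below each of the 16 levels on chips 1 and 2. The difference was 0.20 (SE 0.046, adjusted p = 0.00277), a level 14.5% higher. With normexp background correction it was 0.566 (adjusted p = 0.00119), so its size depends on how background is handled.

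Kcnma1 had medians of 9.34 on chip 1 and 9.39 on chip 2, and ran from 8.94 to 9.30 with a median of 9.20 on chip 4. Its difference was 0.21 (SE 0.076, adjusted p = 0.041), and 13 of the 16 mice on chips 1 and 2 exceeded the chip 4 median. Without control mouse C66 the difference was 0.18 and missed an FDR of 10% (adjusted p = 0.102). Kcnn1 fell by 0.10 (SE 0.044, adjusted p = 0.0862), and 15 of the 16 mice on chips 1 and 2 lay below the chip 4 median. Kcnj9 differed by 0.12, as it did over all arrays (adjusted p = 0.109), and without C66 by 0.151 (adjusted p = 0.0543).

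Kcnmb4 did not pass in this comparison, with -0.08 (95% interval -0.21 to 0.05) for probe 1 and 0.08 (95% interval -0.05 to 0.21) for probe 2, both at an adjusted p of 0.395. The interval of either probe excludes the difference measured on chip 3. The test of the difference between both comparisons gave -0.40 (SE 0.12, adjusted p = 0.0283) for Kcnmb4 probe 1 and -0.45 (SE 0.11, adjusted p = 0.0107) for probe 2. It gave -0.24 (SE 0.085, adjusted p = 0.0631) for Kcnj3, and 15.2% of all tested probes passed the same FDR of 10%. For Kcnma1, Kcnj9, Kcnn1 and Kcnn2 this test gave -0.10, -0.03, 0.04 and 0.09, with adjusted p between 0.446 and 0.906.

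**Figure D3:**
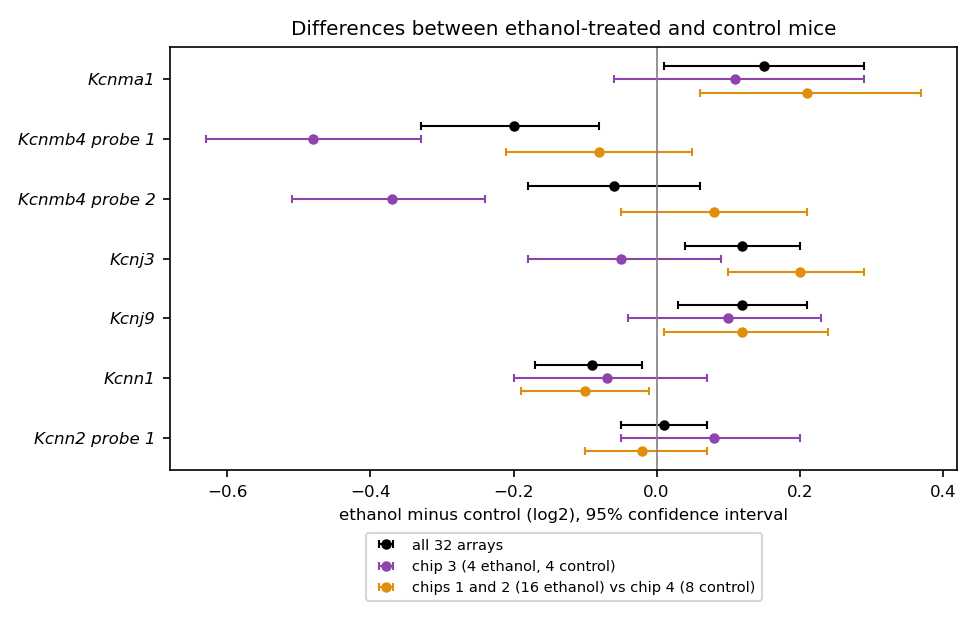
Ethanol minus control (log2) with the 95% confidence interval for each tested probe, over all 32 arrays (black), within chip 3 (purple) and between chips 1 and 2 and chip 4 (orange). For both Kcnmb4 probes the chip 3 interval lies wholly below that of the other chips, and for Kcnj3 the interval of chips 1, 2 and 4 lies above 0 while that of chip 3 spans it.

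Differences between arrays of 1 treatment gave the scale of what went with chip or position while treatment was constant. The sets compared also hold different mice and tissue samples. Between chips 1 and 2, both of ethanol-treated mice, 0 of 7 channel probes passed an FDR of 10% by limma, 1 had an unadjusted p below 0.05, and 1.87% of all probes passed. The 1 probe was Kcnmb4 probe 1, which was higher on chip 1 by 0.18 (adjusted p = 0.176). Between the controls of chip 3 and those of chip 4, 4 of 7 channel probes passed an FDR of 10%, all higher on chip 3, where 19.3% of all probes passed. These were Kcnma1 by 0.30 (adjusted p = 0.00798), Kcnmb4 by 0.34 and 0.35 (adjusted p = 0.0119 and 0.00458) and Kcnj3 by 0.20 (adjusted p = 0.0173). The controls of chip 3 differ from those of chip 4 also in position, since all 4 are at even positions.

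Each of chips 1, 2 and 4 held 1 treatment, so their odd and even positions could be compared with treatment constant. Both Kcnmb4 probes passed an FDR of 10%, as did 20.2% of all probes. Odd minus even gave -0.15 (SE 0.047, adjusted p = 0.0327) for probe 1 and -0.23 (SE 0.041, adjusted p = 0.00129) for probe 2, so that Kcnmb4 was lower at odd positions. Odd positions are those of the ethanol-treated mice on chip 3, and the chip 3 differences of Kcnmb4 have the same sign. Kcnj3 and Kcnj9 had differences of -0.09 and -0.11 (adjusted p = 0.106 and 0.144).

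Levels were then compared at matched positions across chips, a set of comparisons chosen after seeing the data. At odd positions Kcnmb4 probe 1 averaged 9.45 ± 0.18 (SD, n = 8) in ethanol-treated mice of chips 1 and 2, 9.46 ± 0.06 (SD, n = 4) in ethanol-treated mice of chip 3 and 9.49 ± 0.15 (SD, n = 4) in controls of chip 4. The means of these 3 sets differed by less than their SDs. At even positions it averaged 9.57 ± 0.12 (SD, n = 8) in ethanol-treated mice of chips 1 and 2, 9.93 ± 0.14 (SD, n = 4) in controls of chip 3 and 9.69 ± 0.08 (SD, n = 4) in controls of chip 4. The controls of chip 3 had the highest mean of the 6 sets. The ethanol-treated mice of chip 3 differed from those of chips 1 and 2 at the same positions by 0.01 (95% interval -0.15 to 0.17).

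For probe 2 the order of the sets at even positions differed in part. It averaged 9.09 ± 0.10 (SD, n = 8), 9.24 ± 0.10 (SD, n = 4) and 9.0 ± 0.057 (SD, n = 4) in these sets, with the controls of chip 3 again highest and those of chip 4 lowest. At odd positions it averaged 8.85 ± 0.14 (SD, n = 8), 8.86 ± 0.053 (SD, n = 4) and 8.78 ± 0.06 (SD, n = 4) in the ethanol-treated mice of chips 1 and 2, those of chip 3 and the controls of chip 4.

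The tests at matched positions came from 1 limma fit of 6 sets of arrays. Ethanol-treated mice of chips 1 and 2 against controls of chip 3 at even positions gave -0.36 (SE 0.079, adjusted p = 0.0304) for Kcnmb4 probe 1 and -0.15 (SE 0.064, adjusted p = 0.282) for probe 2. Probe 1 was the only channel probe of 7 to pass an FDR of 10% there, against 1.92% of all probes. Ethanol-treated mice of chip 3 against controls of chip 4 at odd positions gave -0.03 (95% interval -0.22 to 0.15) and 0.08 (95% interval -0.07 to 0.23) for these probes. In that comparison Kcnma1 alone of the 7 passed, with 0.36 (SE 0.12, adjusted p = 0.0632), against 9.55% of all probes.

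Within treatment at matched positions, controls of chip 3 exceeded controls of chip 4 by 0.35 for Kcnma1 (adjusted p = 0.0676), by 0.24 for Kcnmb4 probe 2 (adjusted p = 0.0446) and by 0.19 for Kcnj3 (adjusted p = 0.0883). These 3 of 7 channel probes passed an FDR of 10%, against 11.4% of all probes, and Kcnmb4 probe 1 missed it with 0.24 (adjusted p = 0.104). Ethanol-treated mice of chip 3 against those of chips 1 and 2 at odd positions gave 0 of 7 by limma, with 0 at an unadjusted p below 0.05, against 0.265% of all probes. The largest of these 7 differences was 0.19 for Kcnma1 (95% interval -0.02 to 0.40).

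Between chips 1 and 2 and chip 4, Kcnj3 was higher in ethanol-treated mice at both kinds of position. It averaged 8.07 ± 0.10 (SD, n = 8) against 7.92 ± 0.072 (SD, n = 4) at odd positions, a difference of 0.15 (SE 0.058, adjusted p = 0.0796). At even positions it averaged 8.19 ± 0.099 (SD, n = 8) against 7.95 ± 0.072 (SD, n = 4), a difference of 0.24 (SE 0.058, adjusted p = 0.00644). The controls of chip 3, also at even positions, averaged 8.13 ± 0.034 (SD, n = 4), and ethanol-treated mice of chips 1 and 2 differed from them by 0.05 (95% interval -0.06 to 0.17, adjusted p = 0.755). At odd positions Kcnn1 was lower in ethanol-treated mice, with a difference of -0.19 (SE 0.057, adjusted p = 0.0206). At even positions its difference was -0.02 (95% interval -0.13 to 0.10, adjusted p = 0.878). Of all probes 21.3% passed an FDR of 10% in the odd comparison, against 2 of 7 channel probes, and 18% in the even one, against 1 of 7.

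**Figure D4:**
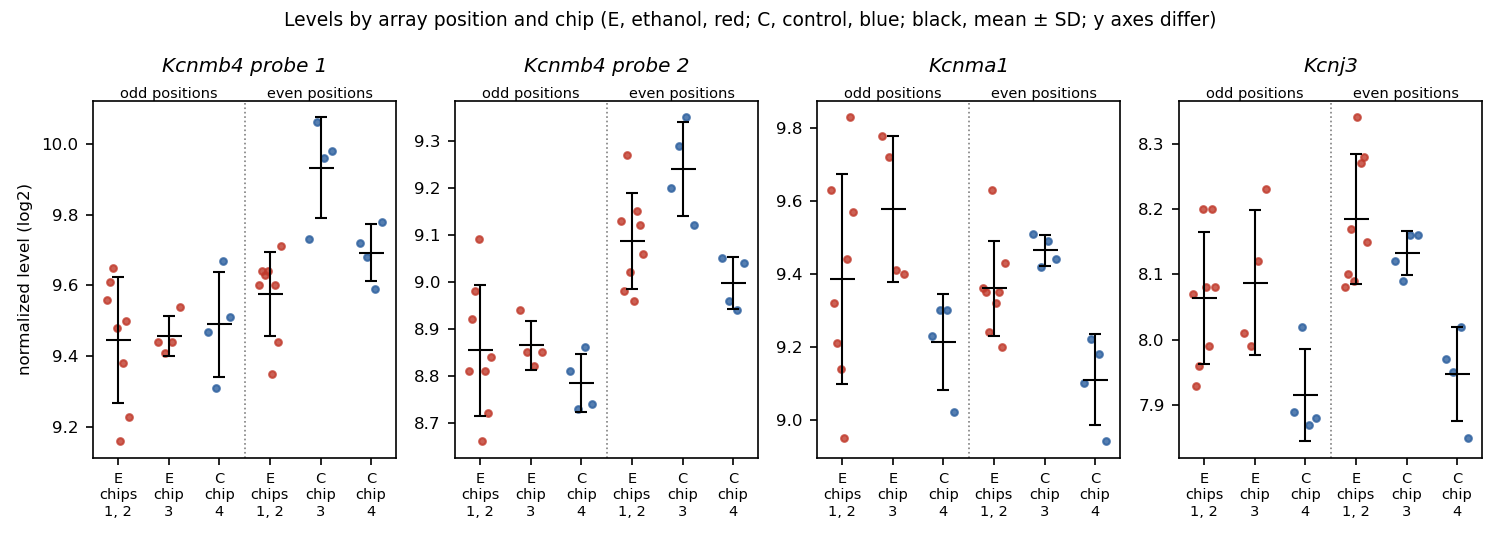
Normalized level (log2) of both Kcnmb4 probes, Kcnma1 and Kcnj3 in each mouse, split into odd positions (left of the dotted line) and even positions (right), with the mean and SD of each set in black. For Kcnmb4 probe 1 the 4 controls of chip 3 (9.73 to 10.06) have the highest mean and overlap the controls of chip 4 at even positions (up to 9.78). For Kcnj3 both sets of chip 4 controls (7.85 to 8.02) have the lowest means and overlap ethanol-treated mice at odd positions (from 7.93).

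Genes that act with these channels were listed by role, 63 in all, of which 54 had a probe on the array and 32 a tested one (40 probes). Over all arrays 7 of the 32 genes passed an FDR of 1% by limma, with 3 probes higher and 4 lower in ethanol-treated mice, or 17.5% of the 40 probes beside 8.27% of all probes. At an FDR of 10% 15 genes passed, with 9 probes higher and 7 lower, or 40% of the 40 probes beside 25.5% of all probes. The median difference over the 40 probes was 0.037, and the median size of a difference was 0.11, beside -0.00321 and 0.0588 over all tested probes. With median scaling or with chip as a fixed block, 0 of these genes passed an FDR of 1%. Under these settings 111 and 21 of the 10187 tested probes passed it.

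Among the partners of BK, cereblon (Crbn), which is known to bind the BK pore and to limit its surface expression, had 3 tested probes. The brightest averaged 9.31 ± 0.08 (SD, n = 20) with ethanol and 9.13 ± 0.13 (SD, n = 12) without, a difference of 0.18 (adjusted p = 0.00121). The others differed by 0.11 (adjusted p = 0.0976) and 0.01 (adjusted p = 0.919). On chip 3 the Crbn probes differed by 0.13, 0.06 and 0 (adjusted p = 0.277, 0.699 and 0.986). Their odd minus even differences on chips 1, 2 and 4 were 0.03, -0.11 and -0.08. Other β subunits of BK and the leucine-rich repeat γ subunits on the array had no tested probe.

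Of the G protein β and γ subunits, whose dimers open GIRK channels, 10 of 12 genes were tested, with 12 probes. An FDR of 1% was passed by 3 γ subunits, all lower in ethanol-treated mice, or 25% of the probes beside 8.27% of all probes. The median difference over the 12 probes was -0.063. Gng4 (0.34), Gnb1 (0.16) and 1 Gnb5 probe (0.09) were higher but did not pass an FDR of 10% by limma (adjusted p = 0.142, 0.181 and 0.213). Gng2 fell by 0.27 (adjusted p = 0.00115) by 1 probe, whereas its other probe differed by -0.06 (adjusted p = 0.491). Gng10 fell by 0.15 (adjusted p = 0.00338), from 10.80 ± 0.09 (SD, n = 12) in controls to 10.65 ± 0.09 (SD, n = 20). Gng13 fell by 0.14 (adjusted p = 0.00166). On chip 3 the differences of these 3 probes were -0.37, -0.11 and -0.08 (adjusted p = 0.00148, 0.267 and 0.426). The other Gng2 probe differed there by 0.09 (adjusted p = 0.555). Odd minus even positions of chips 1, 2 and 4 gave 0.02 for the Gng2 probe that passed and 0.05 for the other. They gave -0.02 for Gng10 and -0.05 for Gng13.

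Inhibitory α subunits moved both ways. Gnao1, the α subunit of Go and an abundant G protein of brain, rose by 0.21 (adjusted p = 0.00411) by its brighter probe, and its other probe differed by 0.11 (adjusted p = 0.12). On chip 3 these probes differed by 0.04 and -0.02. Gnai2 fell by 0.22 (adjusted p = 0.00358), with -0.27 on chip 3 (adjusted p = 0.0286). Odd minus even differences on chips 1, 2 and 4 were 0.01 for Gnai2, and 0.02 and 0.04 for the Gnao1 probes. The catalytic subunit Csnk2a2 of casein kinase 2, which lowers the calcium sensitivity of SK channels through calmodulin, rose by 0.18 (adjusted p = 0.00558) by 1 of its probes and differed by 0.11 (adjusted p = 0.137) by the other. On chip 3 these Csnk2a2 probes differed by 0.20 and 0.31. Their odd minus even differences on chips 1, 2 and 4 were 0.20 and 0.14, the sign they had on chip 3.

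The regulators that set the speed of GIRK signalling (Rgs7, its binding protein Rgs7bp, the receptor Gpr158 that anchors Rgs7, and Rgs4 and Rgs8) had 5 tested probes, and all 5 passed an FDR of 10%, where 25.5% of all probes did. Of these, 4 were higher and 1, Rgs8, was lower in ethanol-treated mice, and 0 passed an FDR of 1% by limma. Over all arrays Rgs7, Rgs7bp, Rgs4, Gpr158 and Rgs8 differed by 0.11, 0.35, 0.21, 0.15 and -0.17. On chip 3 they differed by -0.08, 0.47, -0.09, 0.06 and -0.05, so that the sign turned for Rgs7 and Rgs4, and Rgs7bp passed an FDR of 10% there (adjusted p = 0.0228). In the same order, their odd minus even differences on chips 1, 2 and 4 were -0.03, 0.27, -0.15, 0.10 and 0.05. These had the chip 3 sign for all but Rgs8. Of the receptors that open GIRK channels through Gi and Go, 3 of 12 genes were tested, and 1 (Adora1) passed an FDR of 10%, by 1 of 2 probes. On chip 3, 3 of the 4 receptor probes passed an FDR of 10%, all lower in ethanol-treated mice, where 17% of all probes passed. These were Gabbr1, a subunit of the GABA-B receptor, with -0.40 (adjusted p = 0.00266), the adenosine receptor Adora1 with -0.37 (adjusted p = 0.00235) and the serotonin receptor Htr1a with -0.33 (adjusted p = 0.0103). Between chips 1 and 2 and chip 4 the same probes differed by 0.31 (adjusted p = 0.0107), -0.05 (adjusted p = 0.611) and 0.09 (adjusted p = 0.3). The test of the difference between these comparisons gave adjusted p of 0.00423, 0.0555 and 0.013. Odd minus even positions of chips 1, 2 and 4 gave -0.33, -0.17 and -0.15, the sign they had on chip 3. The other Adora1 probe, which was brighter, differed by -0.07 on chip 3 (adjusted p = 0.677). It differed by 0.12 over all arrays (adjusted p = 0.146) and by 0.19 between chips 1 and 2 and chip 4 (adjusted p = 0.0428). Kcnj5, the GIRK4 subunit, had no tested probe. Of the channels that bring in or release the calcium that opens BK and SK channels, 6 of 11 genes were tested and 1 passed an FDR of 10%.

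**Figure D5:**
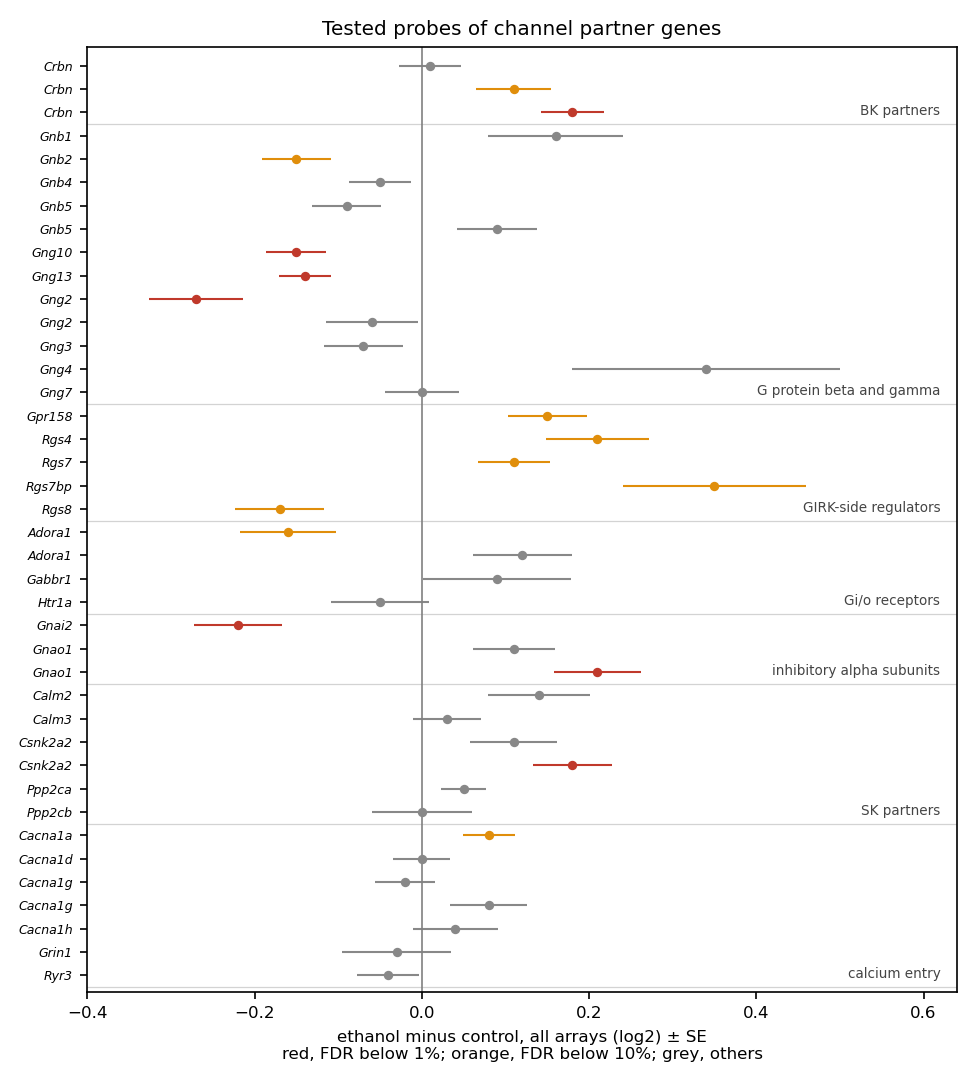
Ethanol minus control over all 32 arrays (log2) with its SE for the 40 tested probes of channel partner genes, grouped by role, with probes at an FDR below 1% in red and below 10% in orange. The red points are Crbn, Gnao1 and Csnk2a2 on the right of 0 and Gng2, Gng10, Gng13 and Gnai2 on the left, and for Crbn, Gng2, Gnao1 and Csnk2a2 other probes of the same gene lie nearer to 0.

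The channel probes varied largely apart from one another between mice. After centring within chip and treatment, over 32 arrays that share chips, the correlation between Kcnma1 and Kcnmb4 was 0.0404 for probe 1 and -0.219 for probe 2, and that between Kcnj3 and Kcnj9 was 0.0586. The correlation between Kcnj3 and Kcnmb4 probe 2 was 0.379. By the same measure the genes most like Kcnma1 were LOC100046781, Tmem23 (both r = 0.759) and Rapgef5 (r = 0.732). Those most like Kcnmb4 probe 1 were Luzp1 (r = 0.774), D15Wsu169e (r = 0.752) and Gna11 (r = 0.718). For Kcnj3 they were Cog6 (r = 0.702), Capn2 (r = 0.666) and Hectd3 (r = 0.663), and for Kcnj9 Stmn2 (r = 0.761), Gnpda1 (r = 0.737) and Atp6v0d1 (r = 0.706). For Kcnn1 they were LOC100045780 (r = 0.626), Fbxo18 (r = 0.625) and Epn2 (r = 0.609), and for Kcnn2 probe 1 Zbtb24 (r = 0.728), Rcl1 (r = 0.679) and 9430029K10Rik (r = 0.638). These are the highest of about 10187 correlations per gene, and for each member 1% of the probes lay above a value between 0.411 and 0.587. The centring did not remove odd or even position, by which both Kcnmb4 probes differed on the chips of 1 treatment. The part of position in the correlations above was not tested.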

How the data were processed

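The authors deposited a bead summary table without normalization, whose intensities are the mean bead signal of each probe on each array. The deposited detection p-values compare it with negative control beads, and other deposited values are the bead standard error and bead number. Per the labels, lumi and limma were used, with no versions given here. Signals were variance-stabilized from the bead standard errors, following lumi, and quantile-normalized in R 4.3.3 (package data.table, version 1.17.8). Probes detected (p below 0.01) on 24 or more of the 32 arrays were compared by limma 3.58.1, with Benjamini-Hochberg adjustment over 10187 probes. A gene passed when any of its tested probes did. Steps were tested on simulated data. Figures were drawn in Python 3.11.15 with matplotlib 3.10.9. All probes of the members are named, together with partner genes at an FDR below 1% and the 3 genes most correlated with each member's brightest probe, while others are examples. The members and lists were chosen with earlier results of these data known. Alternatives were log2 of the signal, normexp (offset 16), median scaling, other probe filters, chip and position terms, array weights and left-out arrays. The number of arrays limits the precision.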

Additional observations from a re-analysis of the deposited data

Results flagged for a closer look

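For 3 probes the ethanol minus control difference of chip 3 was not the same as that of chips 1 and 2 with chip 4, by limma's test of the difference itself. It was -0.40 for Kcnmb4 probe 1 (adjusted p = 0.0283), -0.45 for Kcnmb4 probe 2 (adjusted p = 0.0107) and -0.24 for Kcnj3 (adjusted p = 0.0631). Position on chip 3, and chip elsewhere, cannot be told apart from treatment.

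In 1 of 35 groups of 4 or 8 arrays over the 7 tested probes, a mouse stood apart from its group, where chance gives about 1 in 20. Among the 4 controls of chip 3, mouse C55 had a Kcnn2 probe 1 level of 7.87, while the next was 7.78 and the lowest 7.76.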

How the results depend on the processing

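Over all arrays 0 channel genes passed an FDR of 1%. At an FDR of 10% 4 passed, and at 1% 1 passed with chip as a fixed block (Kcnmb4 probe 1, adjusted p = 0.00897 by limma) and 1 with position as a covariate (Kcnj3, adjusted p = 0.00519). With both, 0 passed, beside 2 of the 10187 tested probes, and Kcnmb4 probe 1 had a difference of -0.323 (adjusted p = 0.216). On chip 3, where 1 gene passed, 0 passed with normexp background, a setting in which 0 of the 10187 tested probes passed an FDR of 1%. Both Kcnmb4 probes passed an FDR of 10% there (adjusted p = 0.0195), as did 10.8% of all probes. Leaving out each array of chip 3 in turn left 1 gene at an FDR of 1%, with adjusted p from 0.000427 to 0.00575 for Kcnmb4 probe 1 and from 0.00222 to 0.0104 for probe 2. Between chips 1 and 2 and chip 4, where 1 passed, 3 passed at an FDR of 10% and 0 among probes detected on all arrays, a filter that leaves out Kcnj3. Of the partner genes 7 passed, 15 at an FDR of 10%, 0 with median scaling, with chip as a fixed block or with chip and position, and 1 with chip as a random block. Of all tested probes 111 passed an FDR of 1% with median scaling, 21 with the fixed block, 2 with chip and position and 78 with the random block. Signs turned in 6 values. With median scaling, Kcnmb4 probe 2 had 0.00492 over all arrays, Kcnmb4 probe 1 had 0.0556 and Kcnn2 probe 1 had 0.0145 between chips 1 and 2 and chip 4, and Kcnn1 had -0.0637 in the difference between comparisons. Over all arrays Kcnmb4 probe 2 had 0.0131 with position as a covariate, and Kcnj3 had -0.0469 with chip as a fixed block. Under median scaling the median difference of all probes was 0.0474 over all arrays (-0.00321 with quantile normalization), 0.083 between chips 1 and 2 and chip 4 (-0.00626) and -0.113 in the difference between comparisons (0.00273), where settings were chosen after seeing the data. The cause was not tested. No paired analysis was possible because the groups share no replicate numbers.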
